A study of Mus musculus with 4 samples.

Results

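Macrophages of the neonatal heart were the main immune source of most of 10 growth factors and cytokines with roles in repair: Igf1, Vegfa, Pdgfb, Pdgfa, Tgfb1, Hbegf, Osm, Bmp2, Gdf15 and Grn. The 10 genes were picked by symbol, out of 32285 genes in the files. The data are single-cell 3' RNA libraries (10x Genomics v3) of CD45+ cells sorted from C57BL/6 hearts whose atria had been removed. The tissue had been digested with enzymes for 45 minutes at 37 degrees Celsius, and dead cells had been labelled with a dye. The mice were PD1 +/- (Het) or PD1 -/- (KO), PD1 being an inhibitory receptor on lymphocytes, so every library carries at least one deleted allele. Surgery was either sham or myocardial infarction (MI), at postnatal day 2, and tissue was collected 7 days afterwards. Each of the 4 combinations, called Het_sham, KO_sham, Het_MI and KO_MI, is represented by a single library, and no source used here gives the number of animals or their sex. Differences therefore have no replicate check and were not tested. Values in brackets are 95% intervals for counting error alone, and values of 4 libraries always follow the order above.

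Growth factors from immune cells act on the other cells of the heart by several routes. VEGF-A and the PDGFs act on endothelial cells and on the mural cells and fibroblasts around them, while IGF-1, HB-EGF and oncostatin M act on receptors that cardiomyocytes and fibroblasts carry. TGF-beta 1, BMP-2 and GDF15 belong to the TGF-beta superfamily, and progranulin, encoded by Grn, is a glycoprotein that is secreted or delivered to lysosomes. Macrophages are a known source of IGF-1 and progranulin, and the newborn mouse heart can regenerate for a short time after birth, which requires macrophages.

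Promoter windows in the RefSeq table (GRCm38.p6, from 250 bases before to 50 bases after a start) were found for 6 of the 10 genes. They are printed for Gdf15, which differed widely between libraries and has 2 listed starts, for Vegfa, which stood higher in both MI libraries, and for Igf1, which came almost wholly from macrophages. Capitals mark matches on either strand to TGANTCA (the AP-1 site), CACGTG (an E-box, which contains ACGTG, the core of the hypoxia element) or the NF-kB decamer. TGACGTCA and TGATGCAA were also searched. On GRCm38, Gdf15 lies at chr8:70629393-70632456, minus strand, Vegfa at chr17:46016993-46032369, minus strand and Igf1 at chr10:87858265-87937042, plus strand.
Gdf15, first start, chr8:70632407-70632706, minus strand: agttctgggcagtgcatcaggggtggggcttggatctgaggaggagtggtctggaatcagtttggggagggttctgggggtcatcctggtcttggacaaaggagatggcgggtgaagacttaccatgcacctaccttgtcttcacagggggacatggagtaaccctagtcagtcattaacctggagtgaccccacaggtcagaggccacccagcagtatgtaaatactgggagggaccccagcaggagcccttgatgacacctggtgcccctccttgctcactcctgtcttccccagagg
Gdf15, second start, chr8:70632046-70632345, minus strand: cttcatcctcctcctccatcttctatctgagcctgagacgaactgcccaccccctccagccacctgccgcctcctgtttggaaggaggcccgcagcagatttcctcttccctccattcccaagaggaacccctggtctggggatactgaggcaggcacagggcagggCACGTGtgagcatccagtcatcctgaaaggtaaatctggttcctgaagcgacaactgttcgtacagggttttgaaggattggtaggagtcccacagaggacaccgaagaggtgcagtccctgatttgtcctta
Vegfa, first start, chr17:46032328-46032627, minus strand: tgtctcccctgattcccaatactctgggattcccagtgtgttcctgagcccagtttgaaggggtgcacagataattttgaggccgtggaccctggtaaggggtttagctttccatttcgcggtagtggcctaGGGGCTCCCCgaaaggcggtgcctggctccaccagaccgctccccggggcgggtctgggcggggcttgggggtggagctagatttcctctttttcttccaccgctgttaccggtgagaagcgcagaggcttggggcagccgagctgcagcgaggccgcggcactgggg
Igf1, chr10:87860861-87861160, plus strand: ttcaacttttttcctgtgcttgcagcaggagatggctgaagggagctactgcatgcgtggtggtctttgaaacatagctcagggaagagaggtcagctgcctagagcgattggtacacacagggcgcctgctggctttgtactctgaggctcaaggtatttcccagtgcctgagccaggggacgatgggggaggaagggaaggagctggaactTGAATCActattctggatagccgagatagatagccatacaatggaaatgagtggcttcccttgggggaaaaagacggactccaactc
The first Gdf15 window held none of these motifs, and the second, inside the gene, held CACGTG, as do 7.15% of all 32851 windows. The printed Vegfa window held an NF-kB decamer (8.46% of windows) and no ACGTG (19.6% of windows). A second listed Vegfa window, inside the gene and not printed, held 1 ACGTG and no NF-kB decamer. The Igf1 window, which also lies inside the gene, held 1 AP-1 match (7.81% of windows). These are matches of letters only.

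Some facts of the libraries touch the results. They held 52701847, 66587021, 60461796 and 72002420 UMIs in all (unique molecular identifiers, each one RNA molecule read), and 5376, 6407, 5074 and 7104 barcodes passed the filters. Het_sham stood apart: 30.4% of its barcodes exceeded 10% mitochondrial UMIs, against 15.0% to 17.5% in the others. Pairs of libraries shared 4 to 13 barcodes. Cell classes were gated on marker genes, and 5298 droplets with markers of 2 lineages were set aside. The macrophage gate held 1297, 2341, 1959 and 2623 cells with a median of 10450, 10500, 10290 and 8343 UMIs. C1qa, a defining macrophage gene, was at 3711 CPM or more there (CPM are UMIs per 1000000 UMIs of a class) and at 354 or less in the other main classes. In the classical monocyte gate Chil3, one of its markers, was low (3.62 to 23.0 CPM), whereas Ccr2 was at 552 to 715. In KO_MI macrophages 4 Y-linked genes had 0 UMIs, against 85.1 to 134 CPM in the others, so sex and group cannot be told apart. Pdcd1, the deleted gene, was at 5.42, 12.6, 26.2 and 31.4 CPM in T cells, not lower in the KO libraries, and no source used here gives the deleted part, so genotypes below rest on the labels.

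Among immune cells, 7 of the factors came mostly from macrophages. Macrophages supplied 97.1% to 99.0% of the Igf1 UMIs of gated immune cells, 93.2% to 97.0% of Bmp2, 92.8% to 97.3% of Hbegf, 90.5% to 95.8% of Pdgfa, 90.0% to 97.2% of Gdf15, 87.6% to 93.9% of Grn and 81.6% to 93.7% of Pdgfb. The other 3 had mixed sources. Macrophages held 47.2%, 64.3%, 67.9% and 66.8% of the Tgfb1 UMIs, 45.1%, 76.5%, 79.7% and 75.1% of Osm and 14.6%, 38.8%, 50.6% and 55.0% of Vegfa. In Het_sham, T cells supplied 26.6% and B cells 18.8% of the Vegfa UMIs, and neutrophils 21.8% of the Osm UMIs. The shares depend on how many cells of each class a library holds as well as on their level. Over all gated immune cells Tgfb1 was at 180, 188, 203.5 and 185 CPM, against 185, 180.5, 204 and 188 CPM in macrophages. Its macrophage share was thus close to the macrophage share of all UMIs. For Osm this held in Het_sham, at 40.55 CPM over all gated immune cells and 39.8 CPM in macrophages.

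**Figure D1:**
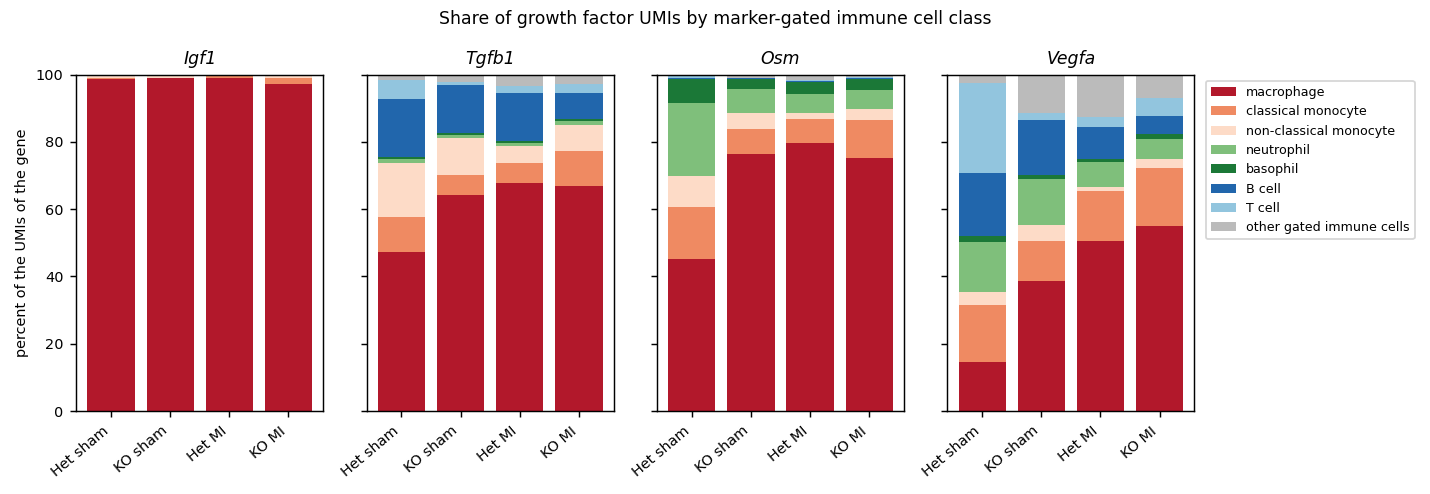
Share of the UMIs of Igf1, Tgfb1, Osm and Vegfa (percent, vertical axis) that came from each gated immune class in the 4 libraries. Igf1 is almost wholly from macrophages in each library, whereas the macrophage share of Vegfa ranges from 14.6% in Het_sham to 55.0% in KO_MI.

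**Figure D2:**
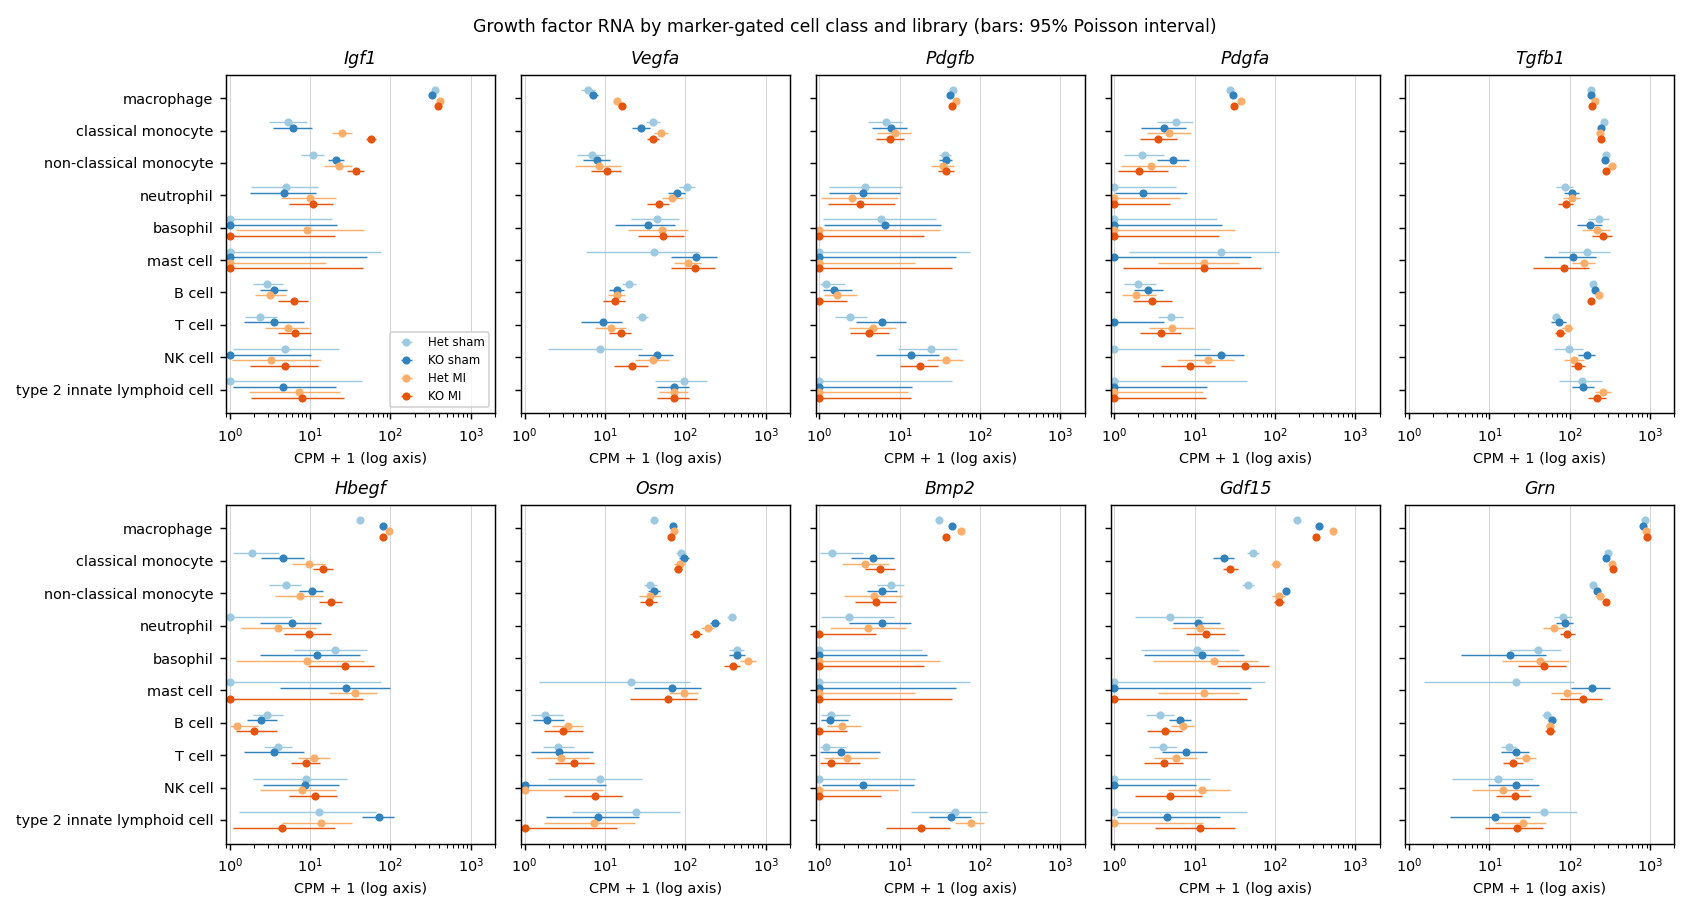
Level of each of the 10 factors in 10 immune classes (CPM plus 1, log axis), 1 point per library with its 95% Poisson interval. Igf1, Pdgfa, Gdf15 and Grn are highest in macrophages and Osm in basophils, and Tgfb1 is present in all 10 classes.

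Vegfa, the main growth factor of blood vessels, was low in macrophages and higher after MI with either genotype. Its level there was 5.17 [4.08 to 6.475], 6.18 [5.30 to 7.16], 13.01 [11.6 to 14.5] and 15.1 [13.6 to 16.7] CPM. Both MI libraries lay above both sham libraries and the intervals did not overlap. The log2 ratio was 1.33 [0.965 to 1.71] for Het_MI over Het_sham and 1.29 [1.03 to 1.555] for KO_MI over KO_sham. The second divided by the first was −0.04 [−0.485 to 0.40] on the log2 scale. Few macrophages had a Vegfa UMI: 4.16%, 4.955%, 8.01% and 8.425%, or 0.927%, 1.015%, 2.27% and 2.58% after each cell was thinned to 2000 UMIs. B cells, at lower depth, had a Vegfa UMI in 4.96% to 7.53% of cells, so a share of cells does not set macrophages apart from them.

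Several other classes held more Vegfa per UMI than macrophages. Neutrophils stood at 105 [83.2 to 131], 77.6 [59.5 to 99.5], 68.35 [49.9 to 91.5] and 45.5 [32.8 to 61.5] CPM, the reverse of the order of the macrophages. Classical monocytes held 39.0, 27.4, 49.3 and 38.5 CPM. Type 2 innate lymphoid cells, 120 in all, held 94.2, 71.6, 72.2 and 70.45 CPM and mast cells, 75 in all, 40.4, 135, 107 and 131 CPM. T cells held 27.9, 8.41, 10.97 and 14.7 CPM, most in Het_sham. T cells with a UMI of Rag1, the recombinase of developing lymphocytes, held 32.6, 27.1, 20.1 and 18.15 CPM of Vegfa, and those without it 20.8, 4.135, 7.00 and 11.5 CPM. The Rag1 level of T cells was also highest in Het_sham, at 273, 99.3, 162 and 197 CPM, and its part in the Vegfa values was not tested.

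Pdgfb, which recruits pericytes to vessels, was nearly level in macrophages, at 44.6 [41.2 to 48.1], 41.7 [39.4 to 44.15], 49.65 [46.9 to 52.6] and 43.2 [40.7 to 45.8] CPM. Non-classical monocytes, which patrol vessels, held 35.9, 36.5, 33.9 and 37.0 CPM, and classical monocytes only 5.69, 6.72, 7.67 and 6.63 CPM. Non-classical monocytes were thus above classical ones in 4 of 4 libraries. NK cells held 12.6 to 36.7 CPM and B cells at most 0.664 CPM. The 142 endothelial cells that came through the sort held 127.5 to 251 CPM. Pdgfa, a ligand of PDGF receptors on fibroblasts, stood at 26.6 [24.0 to 29.4], 28.65 [26.7 to 30.7], 36.9 [34.5 to 39.5] and 29.55 [27.5 to 31.7] CPM in macrophages. Het_MI was highest and the other 3 libraries lay close together, and monocytes held at most 4.82 CPM.

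Igf1, a growth and survival signal for cardiomyocytes, differed little between libraries. Macrophages held 356 [346 to 365], 324 [317 to 330.5], 414 [406 to 422] and 387 [379.6 to 395] CPM, and 76.2%, 76.5%, 82.2% and 77.7% of them had a UMI, against 1.05% to 2.26% of B cells. Both MI libraries were above both sham libraries, by a log2 ratio of 0.22 [0.17 to 0.27] in Het and 0.26 [0.22 to 0.30] in KO. Classical monocytes held 4.38, 5.17, 24.1 and 56.5 CPM and non-classical monocytes 9.82, 20.1, 21.6 and 36.0 CPM. The MI values were above the sham values within each genotype, an order that several alternatives given below turned in non-classical monocytes. The macrophage genes C1qa, C1qb and C1qc, summed, stood at 230.4, 301, 323 and 852 CPM in classical and 253, 503, 346 and 934 CPM in non-classical monocytes. They were lowest in Het_sham and highest in KO_MI, like Igf1 there, and their part in the monocyte values was not tested.

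Hbegf, a membrane-bound EGF receptor ligand that proteases release, was at 41.2 [38.0 to 44.6], 80.8 [77.5 to 84.1], 96.4 [92.5 to 100.4] and 79.6 [76.2 to 83.1] CPM in macrophages. Het_sham was well below the other 3 libraries. A UMI was found in 18.9%, 31.2%, 34.7% and 29.0% of macrophages and in 0.138% to 0.873% of B cells. Endothelial cells (67.0 to 133 CPM) and fibroblasts (45.1 to 137 CPM) from the same sort held Hbegf too. Monocytes held less, at 0.876, 3.62, 8.77 and 13.6 CPM in classical and 3.99, 9.44, 6.59 and 17.2 CPM in non-classical ones. In both monocyte classes the libraries had the same order as for the summed C1qa, C1qb and C1qc, whose part here was not tested.

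Osm, an IL-6 family cytokine, was highest in basophils, at 437 [351 to 537], 443 [351 to 552.5], 606 [475 to 762] and 386 [303 to 485] CPM from 162 cells in all. Neutrophils held 376.5 [334 to 423], 235 [203 to 272], 188 [157 to 225] and 135 [113 to 161] CPM, highest in Het_sham and lowest in KO_MI. In macrophages the level was 39.8 [36.7 to 43.2], 70.15 [67.1 to 73.3], 72.4 [69.0 to 75.9] and 65.0 [61.9 to 68.2] CPM, so Het_sham was there the lowest library. Classical monocytes (88.5, 96.6, 84.4 and 80.8 CPM) and non-classical monocytes (35.9, 39.65, 35.75 and 33.95 CPM) were nearly level across libraries.

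In neutrophils Osm and Vegfa were lower after MI. Of the 4 factors with enough UMIs, 2 were at least 1.5-fold lower in Het_MI than in Het_sham (Osm and Vegfa; 13.9% of 3811 genes were), and the same 2 in KO_MI over KO_sham (13.4% of 4177 genes). Osm stood at −0.999 [−1.32 to −0.69] and −0.80 [−1.14 to −0.46], and Vegfa at −0.62 [−1.18 to −0.075] and −0.77 [−1.37 to −0.18]. Osm was also lower in KO_sham than in Het_sham, at −0.68 [−0.95 to −0.41] (10.4% of 4059 genes were), and Vegfa in KO_MI than in Het_MI, at −0.59 [−1.23 to 0.05] (12.9% of 3945 genes). A summed list of 28 dissociation and immediate early genes, such as Fos and Jun, stood at 15430, 12200, 11780 and 9360 CPM in neutrophils, in the same order as Osm and Vegfa. In neutrophils with a low score for that list Vegfa was at 0.20 in Het_MI over Het_sham, not lower. The other ratios of Osm and Vegfa named here kept their sign in those cells. The part of the list in these values was not tested.

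Tgfb1, a cytokine of fibrosis and immune restraint, was the least restricted factor. Macrophages held 185 [178 to 192], 180.5 [176 to 185.5], 204 [198 to 209.9] and 188 [183 to 194] CPM. Non-classical monocytes held 282, 272.5, 334 and 282, classical monocytes 264.5, 244, 235 and 239.9 and B cells 192, 205, 229 and 183 CPM, while T cells held 66.5 to 93.9 CPM. In each of these classes and in neutrophils it stayed within 1.5-fold in all 4 comparisons.

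Bmp2, a morphogen of the developing heart, was at 29.95 [27.2 to 32.9], 43.2 [40.8 to 45.7], 56.3 [53.35 to 59.4] and 36.6 [34.3 to 39.05] CPM in macrophages. Het_MI was the highest and Het_sham the lowest library, and none of the 4 intervals overlapped. Type 2 innate lymphoid cells held 47.1, 43.0, 75.4 and 17.6 CPM from 45 UMIs, whereas B, T and NK cells held at most 2.525 CPM. Gdf15, a cytokine that cells make under stress, was at 184 [177.5 to 191], 353 [346 to 360.1], 526.5 [517 to 536] and 325 [318 to 332] CPM in macrophages. Het_sham was again lowest and Het_MI highest, with both KO libraries between them.

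Gdf15 RNA was unevenly spread over macrophages. A UMI was found in 27.8%, 44.55%, 51.7% and 43.5% of them (14.15%, 25.45%, 31.0% and 25.0% after thinning) and in 1.42% to 3.72% of B cells. The 10% of macrophages with the most Gdf15 held 82.2%, 68.5%, 65.4% and 66.95% of its UMIs. For Grn, which had a higher CPM in each library and a UMI in more cells, the share was 27.9% to 29.9%. Non-classical monocytes held 45.4 [38.4 to 53.3], 136 [124 to 149.7], 111 [91.9 to 133] and 111.5 [97.2 to 127] CPM of Gdf15, lowest in Het_sham. In classical monocytes a single cell per library held 51.7%, 30.2%, 75.8% and 15.3% of the Gdf15 UMIs.

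Monocytes differed in Igf1, Hbegf and Gdf15. In non-classical monocytes the factors at least 1.5-fold higher were Igf1 and Gdf15 in Het_MI over Het_sham, 2 of 6 measured factors (5.95% of 7591 genes), Igf1 and Hbegf in KO_MI over KO_sham, 2 of 8 measured factors (5.65% of 7870 genes), the same pair in KO_MI over Het_MI, 2 of 7 measured factors (7% of 6702 genes), and all 3 in KO_sham over Het_sham, 3 of 9 measured factors (3.74% of 8370 genes). In classical monocytes they were Igf1 and, resting on a single cell, Gdf15 in Het_MI over Het_sham, 2 of 6 measured factors (7.12% of 7496 genes), and Igf1 and Hbegf in KO_MI over KO_sham, 2 of 8 measured factors (6.52% of 7810 genes), and over Het_MI, 2 of 8 measured factors (5.1% of 7821 genes). In KO_sham over Het_sham 0 of 5 measured factors (3.85% of 7482 genes) were higher in classical monocytes. The Hbegf call there in KO_MI over Het_MI rested on 43 and 16 UMIs, at 0.63 [−0.23 to 1.56], an interval that includes 0. The Gdf15 of classical monocytes was 0.955 [0.62 to 1.298] in Het_MI over Het_sham and −0.042 without that top cell of each library. It was −1.24 [−1.78 to −0.73] in KO_sham over Het_sham and −1.925 [−2.31 to −1.55] in KO_MI over Het_MI, and without those top cells −0.71 and −0.12. After thinning, Igf1 of non-classical monocytes turned to −0.29 in KO_MI over KO_sham and −0.18 in KO_MI over Het_MI. In Het_MI over Het_sham it turned to −0.31 in cells with Xist and no Y-linked UMI and to −0.040 in cells with a low dissociation score, where it was −0.20 in KO_sham over Het_sham.

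Grn was the most even factor. Macrophages held 859 [844 to 874], 811 [800.4 to 821], 888 [876 to 900.3] and 899.7 [888 to 911] CPM, and 94.3% to 97.7% of them had a UMI. Classical monocytes held 283 to 343, non-classical monocytes 194 to 280.2 and B cells 50.5 to 58.3 CPM. A list of 20 genes for lysosomal proteins and progranulin partners, such as Psap and Ctsd, was read in macrophages. At 1.5-fold, 0 were higher in KO_MI over Het_MI (4.12% of all genes were) and 1 in Het_MI over Het_sham (6.23% of genes). In KO_MI over KO_sham 4 were higher (5.97% of genes) and in KO_sham over Het_sham 0 (3.77% of genes). In each comparison 0 were lower, against 3.93% to 6.35% of genes.

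**Figure D3:**
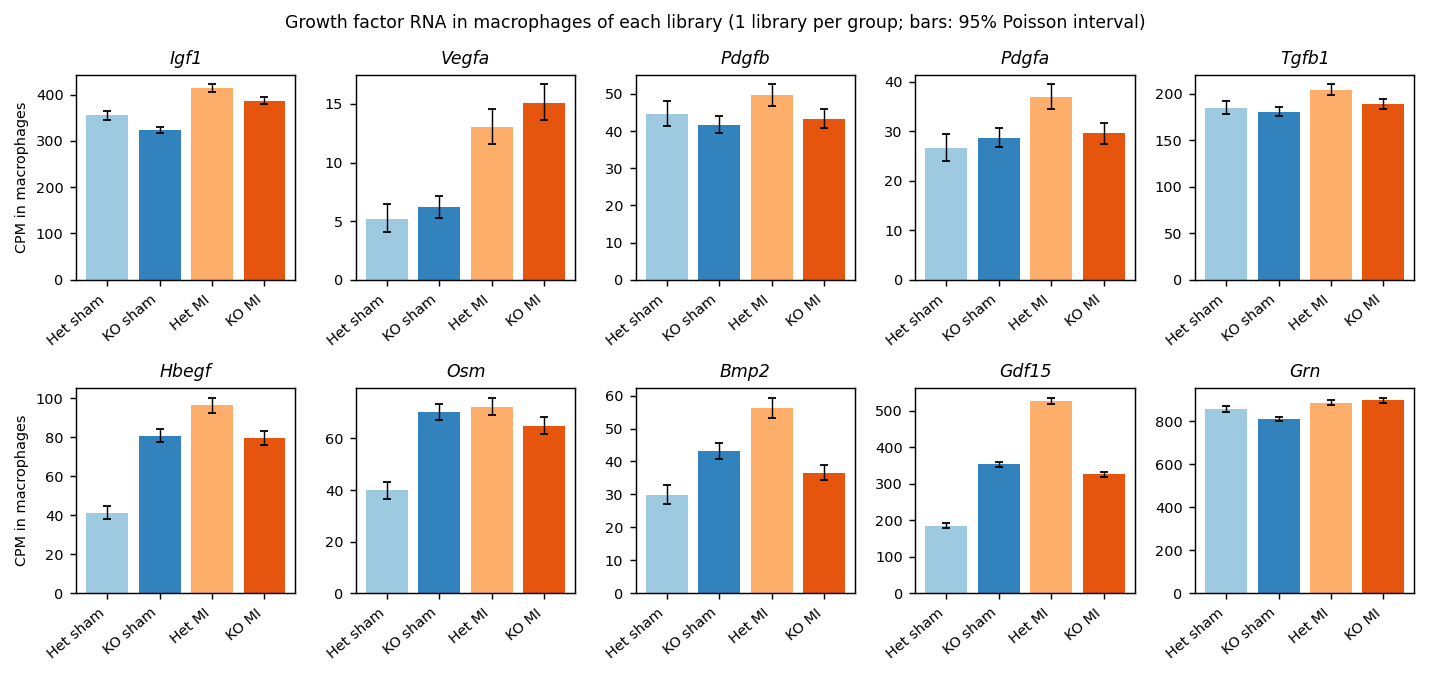
Level of each factor in macrophages of the 4 libraries (CPM, linear axis from 0), with 95% Poisson intervals. Hbegf, Osm, Bmp2 and Gdf15 are lowest in Het_sham and highest in Het_MI, Vegfa is higher in both MI libraries, and Grn lies between 811 and 899.7 CPM.

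The 4 comparisons of macrophages share libraries and are not independent. A factor was counted when its ratio was at least 1.5-fold. In Het_MI over Het_sham 5 of 10 factors were higher (6.23% of 12238 genes with at least 30 UMIs were) and 0 were lower (6.35% of genes). They were Gdf15 with a log2 ratio of 1.51 [1.45 to 1.57], Vegfa, Hbegf with 1.23 [1.097 to 1.36], Bmp2 with 0.91 [0.755 to 1.07] and Osm with 0.86 [0.73 to 0.9995]. The median over the 10 factors was 0.67, against −0.07 over all genes tested. Pdgfa stood at 0.47 [0.30 to 0.65], below the threshold.

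Between the KO libraries fewer factors were apart. In KO_MI over KO_sham 1 of 10 factors, Vegfa, was higher (5.97% of 12743 genes were) and 0 were lower (5.27% of genes), with medians of 0.05 over the factors and −0.12 over all genes. Gdf15 stood at −0.12 [−0.16 to −0.08], Hbegf at −0.02 [−0.11 to 0.065], Osm at −0.11 [−0.205 to −0.02] and Bmp2 at −0.24 [−0.36 to −0.115]. The MI over sham ratio in KO divided by that in Het was −1.63 [−1.71 to −1.56] on the log2 scale for Gdf15, −1.25 [−1.404 to −1.09] for Hbegf, −1.15 [−1.35 to −0.95] for Bmp2 and −0.97 [−1.14 to −0.81] for Osm. For Igf1 it was 0.04 [−0.025 to 0.10].

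The sham libraries differed as well. In KO_sham over Het_sham 3 of 10 factors were higher (3.77% of 12387 genes were) and 0 lower (4.51% of genes), with medians of 0.18 and −0.06. They were Hbegf at 0.97 [0.84 to 1.103], Gdf15 at 0.94 [0.88 to 0.9996] and Osm at 0.82 [0.68 to 0.95]. Bmp2 lay just below the threshold, at 0.53 [0.37 to 0.69], and passed it with TMM scaling, median-of-ratios scaling, droplets of 2 lineages kept, thinning, or only Xist cells without Y-linked UMIs. In those Xist cells Gdf15 was at 0.55, below 1.5-fold. In KO_MI over Het_MI 2 of 10 were lower (3.93% of 12593 genes were) and 0 higher (4.12% of genes), with medians of −0.18 and −0.11. Gdf15 stood at −0.695 [−0.74 to −0.655] and Bmp2 at −0.62 [−0.74 to −0.50], both near the threshold. Of the 2, only Gdf15 passed with TMM scaling, median-of-ratios scaling or at most 5% mitochondrial UMIs, and only Bmp2 with droplets of 2 lineages kept.

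**Figure D4:**
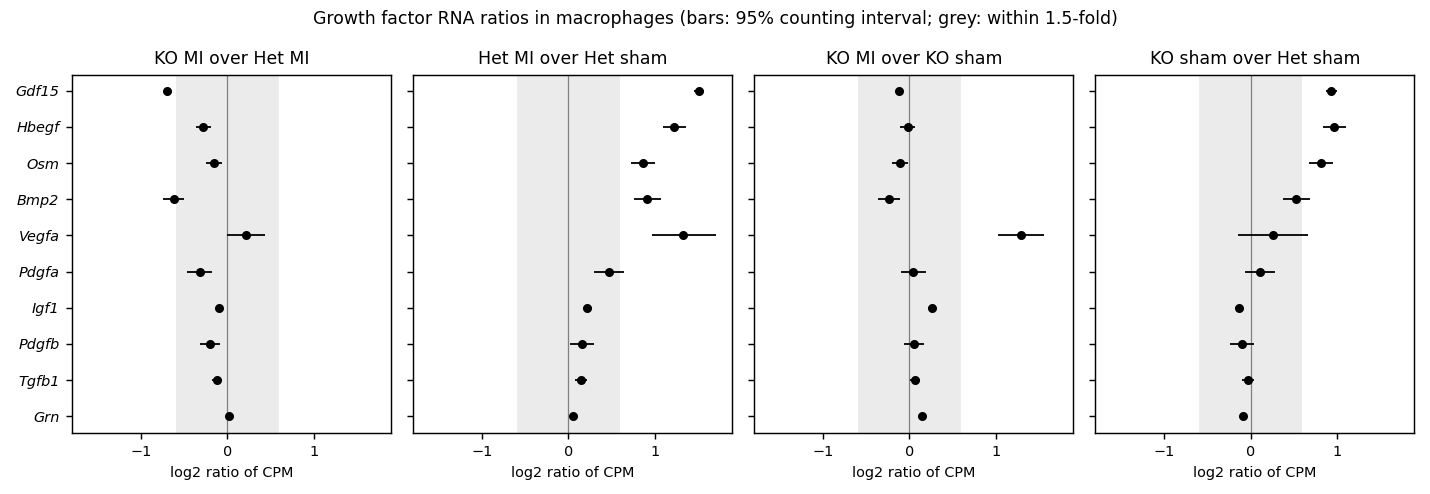
log2 ratio of CPM in macrophages for each factor in the 4 comparisons, with 95% counting intervals; the grey band marks ratios within 1.5-fold. Gdf15, Hbegf, Osm and Bmp2 lie to the right in both comparisons with Het_sham as denominator and left of 0 in both others, while Vegfa is to the right in both MI over sham comparisons.

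In macrophages each ratio that counted Gdf15, Hbegf, Osm or Bmp2 as higher has Het_sham as its denominator. Het_sham macrophages also had the lowest summed level of the 28 dissociation and immediate early genes, at 10590, 13420, 14690 and 12610 CPM. At 1.5-fold, 14 of 28 were higher and 1 lower in Het_MI over Het_sham, and 10 of 28 were higher and 0 lower in KO_sham over Het_sham. In KO_MI over Het_MI 0 of 28 were higher and 0 lower. For the same list Het_sham was the highest library in non-classical monocytes, at 13980, 13400, 13140 and 11010 CPM, and in B cells, at 8705, 7665, 7213 and 6796 CPM, but not in classical monocytes, at 10920, 11050, 10760 and 9465 CPM. An inflammatory list of 8 genes (Cxcl1, Cxcl2, Ccl3, Ccl4, Tnf, Il1b, Ptgs2 and Nfkbiz) stood at 6765, 15360, 15520 and 13090 CPM in macrophages. At 1.5-fold, 8 of 8 were higher and 0 lower in Het_MI over Het_sham and 8 of 8 were higher and 0 lower in KO_sham over Het_sham. In KO_MI over Het_MI 0 of 8 were higher and 1 lower. The shares of all genes in these comparisons are given above.

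Macrophages differed among themselves in the factors they held. Each cell was scored for 9 gene lists that contain none of the 10 factors, and the 20% of macrophages with the highest score (1644 of 8220) were set against the rest within each library. These are ranges of a score and not cell types, and 186 to 1851 cells lay within 0.05 of a limit. Gdf15 was most unequal along the inflammatory score. Cells with a high score held 678, 719, 1097 and 719 CPM and the rest 151, 227, 297 and 224 CPM, a mean log2 difference of 1.85 (range 1.66 to 2.165). Osm (1.20), Bmp2 (1.20), Hbegf (0.52), Pdgfb (0.51) and Pdgfa (0.43) were also higher in these cells in 4 of 4 libraries. Igf1 (−0.33), Grn (−0.18) and Tgfb1 (−0.09) were lower in 4 of 4. Along the integrated stress response score (Ddit3, Trib3 and others) Gdf15 was higher by 1.23 in 4 of 4. Osm (0.90), Bmp2 (0.79), Vegfa (0.59), Hbegf (0.48), Pdgfa (0.42) and Pdgfb (0.28) were also higher along it in 4 of 4. Igf1 (−0.25) and Grn (−0.14) were lower there in 4 of 4.

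The libraries held different shares of such cells. A high inflammatory score was found in 5.94%, 22.8%, 26.5% and 19.6% of macrophages, lowest in Het_sham. High-score cells supplied 23.1%, 52.2%, 59.7% and 45.1% of the Gdf15 UMIs of macrophages. Within high-score cells the Gdf15 log2 ratio was 0.69 in Het_MI over Het_sham, 0.08 in KO_sham over Het_sham and −0.61 in KO_MI over Het_MI. Within the remaining cells the values were 0.98, 0.59 and −0.41. In the remaining cells Osm was at 0.57 in Het_MI over Het_sham, below 1.5-fold, and no factor was past it in KO_MI over Het_MI.

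Hbegf was most unequal along another score. Cells with a high dissociation and immediate early score held 108, 157, 165 and 155 CPM of Hbegf and the rest 34.5, 61.3, 64.7 and 65.8 CPM, a mean log2 difference of 1.396 (range 1.23 to 1.64). They were 10.3%, 20.9%, 29.8% and 16.6% of macrophages. Bmp2 (1.17), Osm (0.49) and Tgfb1 (0.25) were higher along this score too, in 4 of 4 libraries, whereas Gdf15 was higher in 1 of 4 (−0.18). Over single macrophages, however, the Pearson correlation of Gdf15 with the score was positive in 4 of 4 libraries. Its mean r was 0.15 (range 0.079 to 0.215), against 0.17 for Bmp2. Among cells at or below the median of the score the Het_MI over Het_sham ratio was 0.36 for Hbegf and 0.49 for Bmp2, both below 1.5-fold. Gdf15 stood there at 1.88 and Osm at 0.89.

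Igf1 and Vegfa were higher along the lipid-associated score (genes of lipid-handling macrophages). Gdf15 (0.80), Pdgfa (0.44) and Grn (0.12) were higher along it too, each in 4 of 4 libraries, while Bmp2 (−0.71) and Hbegf (−0.36) were lower in 4 of 4. High-score cells held 679.7, 632, 582 and 518 CPM of Igf1 and the rest 291, 271, 349 and 303.5 CPM. For Vegfa the mean log2 difference was 1.08 (range 0.06 to 1.77), with 5.35, 10.55, 26.6 and 25.1 CPM in high-score cells and 5.14, 5.43, 7.79 and 8.74 CPM in the rest, nearly level in Het_sham. Vegfa was also higher in cells with a high MHC class II score, at 14.95, 15.9, 19.8 and 22.8 CPM against 3.92, 4.49, 11.3 and 10.6 CPM, a mean log2 difference of 1.415 (range 0.805 to 1.93). Cells with a high MHC class II score made up 11.9%, 13.6%, 16.5% and 32.4% of macrophages, and those with a high lipid-associated score 12.9%, 11.2%, 20.8% and 30.8%. Outside the high MHC class II cells Vegfa was higher after MI by 1.53 in Het and 1.24 in KO, and within them by 0.405 and 0.52, below 1.5-fold. Outside the high lipid-associated cells the values were 0.60 and 0.69, and within them 2.31 and 1.25. The high lipid-associated cells held 13, 44, 176 and 251 Vegfa UMIs and the high MHC class II cells 25, 67, 94 and 215. Few UMIs thus underlie the Het_sham values in these high-score cells.

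Along the score of resident macrophage genes, Bmp2 was higher by a mean of 1.03, Grn by 0.49 and Igf1 by 0.23, each in 4 of 4 libraries. Vegfa (−1.01), Gdf15 (−0.675), Pdgfa (−0.635) and Pdgfb (−0.62) were lower in 4 of 4. The mean difference of Tgfb1 stayed between −0.18 and 0.25 along all 9 scores, and single libraries between −0.24 and 0.33. Along the interferon score Hbegf (0.87), Gdf15 (0.82), Bmp2 (0.62) and Osm (0.49) were higher in 4 of 4. Igf1 (−0.29) and Tgfb1 (−0.08) were lower along it in 4 of 4. Macrophages with a high score for genes of dividing cells had mean differences below 0 for all 10 factors, from −0.13 for Pdgfb to −0.89 for Hbegf. Pdgfa and Pdgfb were each higher in 1 of 4 libraries, and the other factors were lower in 4 of 4. The median depth of these high-score cells was 14300 UMIs against 9035 in the rest.

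**Figure D5:**
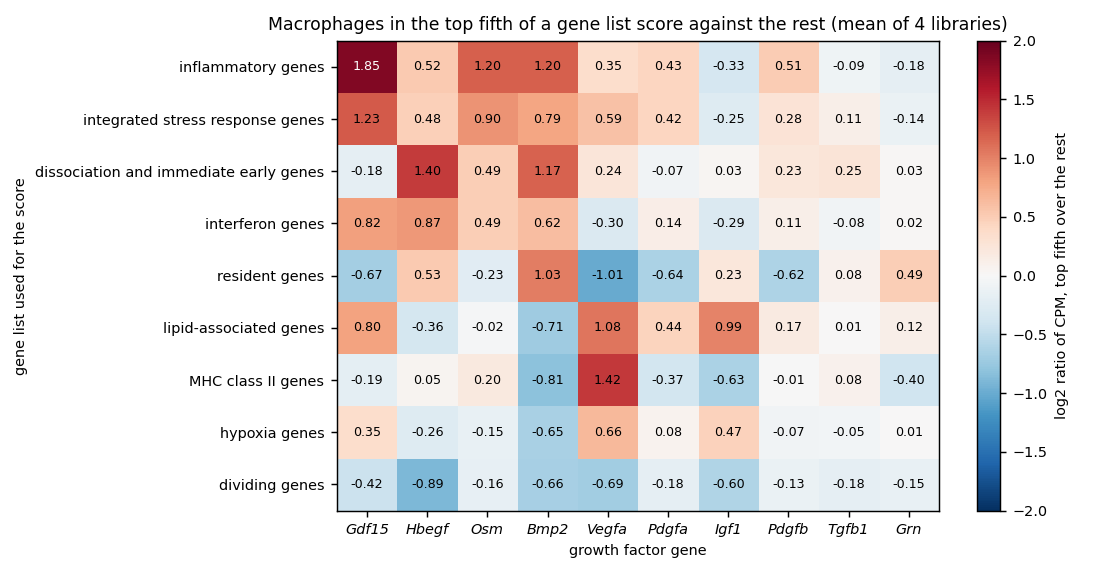
Mean over 4 libraries of the log2 ratio of CPM in the 20% of macrophages with the highest score over the rest, for 10 factors (columns) and 9 gene list scores (rows). Gdf15 is highest along the inflammatory score (1.85), Hbegf along the dissociation and immediate early score (1.396), Vegfa along MHC class II (1.415) and Igf1 along the lipid-associated score (0.99).

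Most macrophages had UMIs of at least 2 factors, and few had UMIs of 4 or more after thinning. After thinning to 2000 UMIs, which left 1187, 2267, 1896 and 2515 macrophages, a cell had UMIs of 2.001, 2.13, 2.44 and 2.27 of the 10 factors on average. At least 2 factors were detected in 64.4%, 69.5%, 76.7% and 73.9% of these thinned cells. At least 3 were detected in 29.3%, 35.4%, 44.3% and 39.7%, and at least 4 in 10.2%, 11.2%, 18.8% and 13.9%. The highest correlations between factors over cells were Igf1 with Grn, at a mean r of 0.25 (range 0.24 to 0.26), and Osm with Gdf15, at 0.24 (range 0.20 to 0.30). The next was Hbegf with Bmp2, at 0.15 (range 0.11 to 0.17). In counts this sparse, and with depth shared, these are descriptions only.

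The genes with the most similar patterns were sought over 24 sums, 6 classes in 4 libraries, among 12938 genes, by Pearson correlation of log2(CPM + 10). The leading genes, with r for the first of each, were Rhov (0.905), Mmp8 and Prkar2b for Vegfa, Serpinb6a (0.97), Spred1 and Lilra5 for Pdgfb and Rnf180 (0.97), Afap1l1 and Dst for Pdgfa. They were Creb5 (0.99), Gatm and Ms4a7 for Igf1, Igf1 (0.96), Cdk18 and Mt2 for Hbegf and Tctex1d2 (0.98), Sde2 and Cebpd for Osm. For the TGF-beta superfamily they were Mtpn (0.96), Prcp and Atf6 for Tgfb1, Gas6 (0.98), Plxna4 and Cd163 for Bmp2 and Adap2 (0.96), Slc7a8 and Fcgrt for Gdf15. For Grn they were Hexa (0.98), Apoe and Cyfip1. The points share libraries and differ mostly by class, so no test was made.

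Other repair factors of macrophages were read from a list of 45 genes. At 1.5-fold, and counting those with enough UMIs, 6 of 22 were higher and 1 lower in Het_MI over Het_sham, 8 of 23 were higher and 2 lower in KO_sham over Het_sham, 10 of 27 were higher and 2 lower in KO_MI over KO_sham and 7 of 26 were higher and 1 lower in KO_MI over Het_MI. In the same order of comparisons, 6.23%, 3.77%, 5.97% and 4.12% of all genes with enough UMIs were higher. The shares that were lower were 6.35%, 4.51%, 5.27% and 3.93%. These shares apply to the lists counted below as well. Il10, an anti-inflammatory cytokine, was lowest in Het_sham and highest in Het_MI like Gdf15, at 7.83, 23.7, 34.25 and 22.0 CPM. Areg, an EGF receptor ligand singled out after its values were seen, stood at 9.87, 32.8, 39.2 and 29.3 CPM. Psap, which encodes the progranulin partner prosaposin, was higher in both MI libraries, at 1065, 1063, 1484 and 1727 CPM. Mydgf, a growth factor of myeloid cells, was lower in both, at 118, 109.9, 90.75 and 90.7 CPM.

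A list of 29 receptor genes was read in the same way: 3 of 23 were higher and 1 lower in Het_MI over Het_sham, 4 of 24 were higher and 0 lower in KO_MI over KO_sham, 2 of 24 were higher and 0 lower in KO_MI over Het_MI and 0 of 23 were higher and 1 lower in KO_sham over Het_sham. Nrp1, a VEGF co-receptor, was at 208, 211, 233 and 185 CPM in macrophages, and Tgfbr2 at 129.8, 132, 142 and 116 CPM. Egfr, a receptor of HB-EGF, was at 0.681 to 1.13 CPM, and Gfral, the receptor of GDF15, had 0 UMIs in them, a gene singled out after its value was seen. Igf2r, which clears IGF-2, was higher in both MI libraries, at 3.40, 2.56, 9.07 and 11.1 CPM.

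Of the measured genes of a list of 34 carriers, activators and inhibitors, 6 of 17 were higher and 2 lower in Het_MI over Het_sham, 3 of 17 were higher and 0 lower in KO_sham over Het_sham, 4 of 18 were higher and 1 lower in KO_MI over KO_sham and 4 of 19 were higher and 1 lower in KO_MI over Het_MI. Thbs1, thrombospondin 1, which can activate latent TGF-beta, was at 50.0, 136, 118 and 154 CPM, lowest in Het_sham. Igfbp4, an IGF binding protein, was at 483, 459, 406 and 301 CPM, lowest in KO_MI. Adam17, a protease that can shed HB-EGF, was at 95.2 to 119 CPM. Of the hypoxia genes, 4 of 23 were higher and 1 lower in Het_MI over Het_sham and 3 of 23 were higher and 0 lower in KO_MI over KO_sham, with medians of −0.07 and 0.07. Along the score of these genes Vegfa was higher in 3 of 4 libraries, by a mean log2 difference of 0.66 (range −0.22 to 1.31). Igf1 (0.47) and Gdf15 (0.35) were higher along it in 4 of 4, and Bmp2 (−0.65), Hbegf (−0.26) and Pdgfb (−0.07) lower in 4 of 4.

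Markers of other cells in the macrophage gate did not share the order of Gdf15, Hbegf, Osm and Bmp2. Fibroblast genes summed to 163, 145, 160.4 and 182 CPM, endothelial genes to 62.6, 61.4, 55.5 and 73.8 and cardiomyocyte genes to 164, 147, 116 and 127 CPM. Platelet genes, mostly Pf4, which macrophages also express, summed to 4965, 4763, 3502 and 2888 CPM. Erythroid genes summed to 25.5, 9.41, 35.9 and 208.5 CPM and pericyte genes to 12.5, 20.7, 9.65 and 29.6 CPM.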

How the data were processed

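The authors deposited unnormalized UMI counts for each gene and cell barcode, per the file headers. The submitters' processing notes name Cell Ranger 6.1.1, Seurat 4 and the builds mm10 and GRCm38, and the matrix header names version 4.0.0 of Cell Ranger. How cells were called is not stated in those sources.

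Cells with at least 500 UMIs, 200 genes and at most 10% mitochondrial UMIs were kept. A cell joined a class when its marker score reached 0.4 of the full score and no second lineage reached 0.3. Droplets with 2 lineages were set aside as possible doublets, with no other doublet caller, and 376 macrophages lay within 0.05 of a gate. The thresholds were set after seeing the data. UMIs were summed per class and library and expressed as CPM with exact Poisson intervals. Ratios carry exact conditional binomial intervals, and the ratio of ratios an approximate one. A ratio needed at least 30 UMIs over both libraries and 100 cells in each. The calculation was tested on simulated data. The 10 factors and all lists were chosen with earlier results of these data known. Named genes are the 10 factors, up to 4 genes of each list by UMI total, its extremes by ratio, and the 3 most similar genes per factor. Python 3.11.15, numpy 2.4.6, scipy 1.17.1, pandas 2.3.3 and matplotlib 3.10.9 were used. Alternatives were TMM and median-of-ratios scaling, other filters, gates and folds, thinning to 2000 UMIs, and subsets of cells.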

Additional observations from a re-analysis of the deposited data

Results flagged for a closer look

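On the CPM scale several factors differed in opposite directions between MI and sham in the 2 genotypes, with intervals of both ratios beyond 0. In macrophages Gdf15 was higher after MI in Het (log2 1.51) and lower in KO (−0.12), a ratio of ratios of −1.63. For Bmp2 the ratio of ratios was −1.15 and for Osm −0.97, again higher after MI in Het and lower in KO. The Gdf15 of non-classical monocytes showed the same, at 1.29 in Het and −0.29 in KO, with a ratio of ratios of −1.58. In B cells Tgfb1 stood at 0.25 in Het and −0.17 in KO, a ratio of ratios of −0.42. The KO side of these contrasts lies close to the scaling. In macrophages the median log2 ratio over all genes in KO_MI over KO_sham was −0.12, and Gdf15 was at −0.019 and Osm at −0.011 there with TMM scaling, both with intervals that include 0, and Bmp2 at −0.14. The TMM shift for the same comparison was −0.070 in non-classical monocytes and −0.087 in B cells. With 1 library per group these differences were not tested, and each depends on Het_sham, the library with the lowest share of barcodes past the filters.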

How the results depend on the processing

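In macrophages no ratio past 1.5-fold changed sign under any of the alternatives run. The count for KO_MI over Het_MI, 2 factors, fell to 1 with TMM scaling, median-of-ratios scaling, at most 5% mitochondrial UMIs, or droplets of 2 lineages kept, and to 0 with a 2-fold threshold or without the 20% of cells with the highest inflammatory score, an alternative chosen after seeing the data. In cells with Xist and no Y-linked UMI it stayed at 2, but with Vegfa higher (0.88) and Bmp2 lower (−0.91), and Gdf15 at −0.58. Cells with a low dissociation score gave Vegfa higher (0.70) besides the 2. A 2-fold threshold left 3 of the 5 factors in Het_MI over Het_sham and 0 of the 3 in KO_sham over Het_sham. Both scalings moved the centre of the macrophage ratios by −0.07 to −0.11.

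Small counts outside macrophages turned direction. In B cells Gdf15 in Het_MI over Het_sham was −0.67 with at most 5% mitochondrial UMIs. In classical monocytes Gdf15 was 0.56 in KO_sham over Het_sham with droplets of 2 lineages kept, −0.042 in Het_MI over Het_sham without the top cell of each library, and −1.968 there and 0.036 in KO_MI over Het_MI in cells with a low dissociation score. In non-classical monocytes Igf1 was −0.18 in KO_MI over Het_MI and −0.29 in KO_MI over KO_sham after thinning, −0.31 in Het_MI over Het_sham in Xist cells, and −0.040 in Het_MI over Het_sham and −0.20 in KO_sham over Het_sham in cells with a low dissociation score. Vegfa of neutrophils in Het_MI over Het_sham was 0.20 in cells with a low dissociation score. The cause was not tested. The Xist alternative was not run in neutrophils, which had 4 to 97 such cells. No paired analysis was possible because each group holds 1 library. Depth limits Vegfa in macrophages (76 UMIs in Het_sham) and all factors in classes of under 100 cells.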
